A study of Mus musculus with 12 samples.

Results

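RNA of the striatum was compared between 14 and 7 days after ischemic stroke in mice labelled cGAS-KO, using all genes of the 2 libraries titled for each time. These 4 libraries are part of a series of 12, in which WT, cGAS-KO and STING-KO mice each have 2 libraries per time. CRISPR-Cas9 was used to make both knockout lines, the background is C57BL/6J, every group had an ischemic stroke, and none of the 6 groups is labelled uninjured. The 7-day and the 14-day cGAS-KO groups therefore share strain, genotype label, tissue and injury and differ in the time after it. Age, sex, the side of the brain sampled and whether libraries came from separate mice are not stated in the labels, so a p-value reflects only how far these libraries spread, which may be technical. In bulk tissue, fewer cells of a type and less RNA per cell cannot be told apart.

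cGAS is an enzyme that binds DNA in the cytosol and makes the cyclic dinucleotide cGAMP, which activates STING and through it the kinase TBK1, IRF3 and type I interferon. After a stroke, microglia and infiltrating monocytes clear debris, astrocytes and stromal cells wall off the lesion, and the subventricular zone beside the striatum sends out neuroblasts. The striatum itself is made up mostly of GABAergic projection neurons, in which Drd1 marks the direct and Drd2 the indirect pathway.

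The 4 libraries held 16115387 to 22126213 counts, with 23673 to 25861 genes counted at least once. Levels are CPM, counts scaled to a common normalised library total, on which 3 counts equal 0.133 to 0.181 CPM, and pairs of values are replicates 1 and 2 in that order. Changes are log2 differences, 14 minus 7 days, ± SE, from the quasi-likelihood test of edgeR, with p-values adjusted by Benjamini-Hochberg over the 19822 genes tested. A gene was called at an adjusted p below 0.05, and genes are said to rise or fall only where called. In the deposited data of the whole series, the 7-day WT libraries stood apart from the others on the second principal component (22.1% of the variance), and 18 cortical and hippocampal genes summed to 4037 and 4817 CPM there against at most 1281 CPM in the other 10 libraries. Mitochondrially encoded genes took 3.63% and 3.56% of the counts in the 7-day cGAS-KO libraries and 8.54% and 7.94% in the 14-day ones. On the first component (50.9%), the 14-day STING-KO libraries, at -118 and -90, lay beside the 7-day WT ones, at -89.3 and -103, while the other 4 libraries of day 14 lay between -10.7 and 16.5.

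The targeted transcript was present at both times. Cgas (ENSMUSG00000032344; mm10, chromosome 9, 78430526 to 78443237, minus strand) had 5.55 and 5.66 CPM at 7 days and 4.09 and 6.15 CPM at 14 days. Its 14-day values lay on either side of the 7-day ones, and the difference of -0.13 ± 0.30 was not called (edgeR adjusted p = 0.774). Counts per gene do not show small sequence changes, so the genotype is used here as a label. Tmem173, which encodes STING, had 28.7 and 30.3 CPM at 7 days and 18.4 and 18.1 CPM at 14 days. It fell narrowly (-0.69 ± 0.23, edgeR adjusted p = 0.039), and the adjusted p rose above 0.05 whichever of the 4 libraries was dropped, to 0.152 at most.

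Between 7 and 14 days, many genes of phagocytes, scar matrix, dividing cells and choroid plexus fell in the striatum labelled cGAS-KO, while many genes of striatal projection neurons and neuroblasts rose. The interferon-stimulated genes did not move as a group, and their level differed between the 2 libraries of day 14. In all, 6022 genes were called, 30.4% of those tested. Of these 2654 rose (13.4%) and 3368 fell (17.0%), with a median change of 0.93 and -1.28 respectively, while the median over all genes was -0.01. Changes of at least 3 on the log2 scale were seen in 126 of the rising and 430 of the falling genes. The libraries of the 2 times did not overlap for 13341 genes (67.3%). The number of calls was 3423 without replicate 1 of day 14 and 2968 without replicate 1 of day 7, and every one of the shared calls kept its direction.

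**Figure D1:**
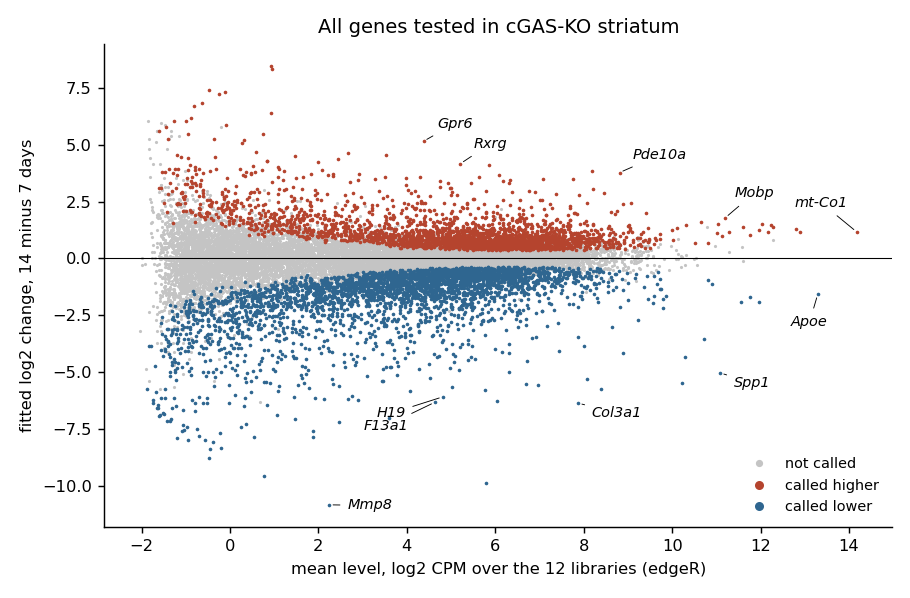
Fitted log2 change between 14 and 7 days (y axis) against the mean level of each of the 19822 genes tested (x axis, log2 CPM over the 12 libraries), with genes called higher in red and called lower in blue. The 3368 falls reach larger sizes than the 2654 rises, and striatal genes such as Gpr6 and Pde10a stand above 0 and phagocyte and matrix genes such as Spp1 and Col3a1 below it.

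Genes of striatal projection neurons rose together. Of 28 genes shared by both pathways 26 rose and none fell, with a median of 2.19, and leaving out 1 library at a time gave 23 to 26. Among genes of the direct pathway 8 of 10 rose and 1 fell (5 to 7 with 1 library left out, 5 without replicate 1 of either time). Of 8 genes of the indirect pathway 4 rose and 1 fell, and 6 rose without replicate 2 of day 7. Drd1, the dopamine receptor of the direct pathway, had 2.17 and 11.2 CPM at 7 days and 61.1 and 89.1 CPM at 14 days (3.46 ± 0.69, edgeR adjusted p = 0.00376). Its co-transmitter genes Tac1, encoding substance P, and Pdyn, encoding dynorphin, rose by 3.34 ± 0.54 and 2.98 ± 0.41. Drd2, the dopamine receptor of the indirect pathway, went from 0.845 and 8.54 CPM to 58.7 and 107 CPM (4.10 ± 0.74, edgeR adjusted p = 0.00226). For both receptors replicate 1 of day 7 was the lowest library, and the 2 times did not overlap. Gpr6, an orphan receptor of indirect-pathway neurons, had the largest rise among called protein-coding genes with a mean log2 CPM of at least 1 and no overlap of the times, from 0.181 and 1.34 CPM to 21.9 and 35.5 CPM (5.16 ± 0.63, edgeR adjusted p = 0.000235).

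The phosphodiesterase Pde10a, which breaks down cyclic nucleotides in both types of projection neuron, stood at 17.6 and 53.9 CPM at 7 days and at 405 and 583 CPM at 14 days. Rxrg, a retinoid receptor, went from 2.23 and 4.22 CPM to 52.2 and 65.7 CPM, with the smallest adjusted p among these genes (4.17 ± 0.26, edgeR adjusted p = 4.85e-06). Scn4b, a sodium channel subunit, rose by 3.83 ± 0.43, and Bcl11b, a transcription factor that projection neurons need, by 2.56 ± 0.43. In each of these 4 genes both 14-day libraries were above both 7-day libraries, and replicate 1 was the lower one of each time. Chat, the enzyme that makes acetylcholine in the large striatal interneurons, had 0.0603 and 0.514 CPM at 7 days and 3.83 and 8.94 CPM at 14 days. Of 15 interneuron genes 8 rose and none fell, with a median of 1.51 (1.27 to 1.78 with 1 library left out). Fewer rose without replicate 1 of day 7. Changes were above 0 for 12 of the 15 genes and below 0 for 3. Among the 8 was Gad1, which makes GABA (1.63 ± 0.19, edgeR adjusted p = 0.000158). The projection neurons are GABAergic too, so its rise is not particular to interneurons.

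Receptor and channel genes, which many types of neuron use, rose in part. Of 26 glutamate and GABA receptor genes 18 rose and none fell (median 1.04), and of 26 potassium, sodium and calcium channel genes 16 rose and 1 fell (median 0.85). With 1 library left out the rises came to 14 to 19 and to 8 to 16, with 8 channel genes without replicate 1 of day 7 and 9 without replicate 2 of day 14. Grm5, a metabotropic glutamate receptor, went from 45.2 and 66.2 CPM to 142 and 158 CPM (1.43 ± 0.18, edgeR adjusted p = 0.000233). Kcnd2, a potassium channel, went from 18.9 and 19.1 CPM to 52.4 and 67.6 CPM (1.66 ± 0.15). Among 25 genes of synapse and neuronal structure 6 rose and none fell, with a median of 0.54 (2 without replicate 1 of day 7, 3 and 4 without replicates 2 and 1 of day 14). In the 7-day libraries every one of these 25 genes was higher in replicate 2 than in replicate 1, where 9679 of all 19822 genes were.

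Markers of neurons outside the striatum were set beside the share of calls over all genes. With 18 and 11 genes tested, a difference in share rests on few genes. Of the cortical and hippocampal genes 27.8% rose and 11.1% fell, where 13.4% and 17.0% of all genes did. Of the thalamic and hypothalamic genes 9.09% fell. The summed level of 18 cortical and hippocampal genes was 1004 and 1201 CPM at 7 days and 1065 and 1003 CPM at 14 days, so the times overlapped, with 5 genes rising, 2 falling and a median of 0.02 (2 rose without either 14-day library and 3 without either 7-day one). Slc17a7, which loads glutamate into vesicles of cortical and hippocampal neurons, had 248 and 366 CPM at 7 days and 294 and 131 CPM at 14 days. None of 11 thalamic and hypothalamic genes rose and 1 fell (2 and 3 without replicates 1 and 2 of day 14). Of 15 immediate early genes, which neurons switch on with activity, 7 rose and 1 fell, but none rose without replicate 1 of day 7 and 3 without replicate 2 of day 14.

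Genes of newborn neurons stood among the largest rises. Dcx, a microtubule protein of migrating neuroblasts, had 14.8 and 18.1 CPM at 7 days and 93.5 and 62.1 CPM at 14 days (2.24 ± 0.21, edgeR adjusted p = 3.76e-05). The homeobox gene Dlx2, which specifies GABAergic precursors, went from 2.59 and 2.21 CPM to 29.6 and 27.4 CPM (3.57 ± 0.24, edgeR adjusted p = 5.63e-06). Sp8, a transcription factor of olfactory bulb precursors, went from 0.483 and 0.412 CPM to 11.2 and 5.68 CPM (4.23 ± 0.54). In these 3 genes the 7-day replicates lay close together and every 14-day value was above them. Prokr2, the receptor that guides neuroblasts to the olfactory bulb, rose by 4.63 ± 0.39, and Igfbpl1, a secreted protein made by neural progenitors, by 3.70 ± 0.39. Of 15 neuroblast and neurogenesis genes 10 rose and 2 fell, with a median of 2.40 and 8 to 10 rises with 1 library left out. The 2 that fell were Mki67, a protein of dividing cells, and Nes, an intermediate filament of progenitors that reactive astrocytes and vessel cells also make.

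Dividing cells were the opposite case. Of 25 genes of S phase and replication 22 fell and none rose (median -1.38), and of 28 genes of mitosis 23 fell and none rose (median -1.27). The S phase falls numbered 18 to 21 with 1 library left out, and the mitosis falls 14 without replicate 2 of day 14 and 25 without replicate 1. Mki67 had 88.3 and 89.4 CPM at 7 days and 38.0 and 22.9 CPM at 14 days (-1.54 ± 0.21, edgeR adjusted p = 0.000291). Aurkb, a kinase of chromosome segregation, went from 17.3 and 18.4 CPM to 5.12 and 4.49 CPM (-1.89 ± 0.21), and Mcm3, a subunit of the replication helicase, from 49.4 and 47.6 CPM to 19.5 and 13.3 CPM (-1.56 ± 0.19). Both 14-day libraries lay below both 7-day libraries for 27 of the 28 mitosis genes and above them for 1. Over all genes the times did not overlap, in either direction, for 67.3%. Replicate 2 of day 14 was the lower of the 14-day pair for 25 of the 28 genes, where 50.7% of all genes were higher in replicate 2.

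**Figure D2:**
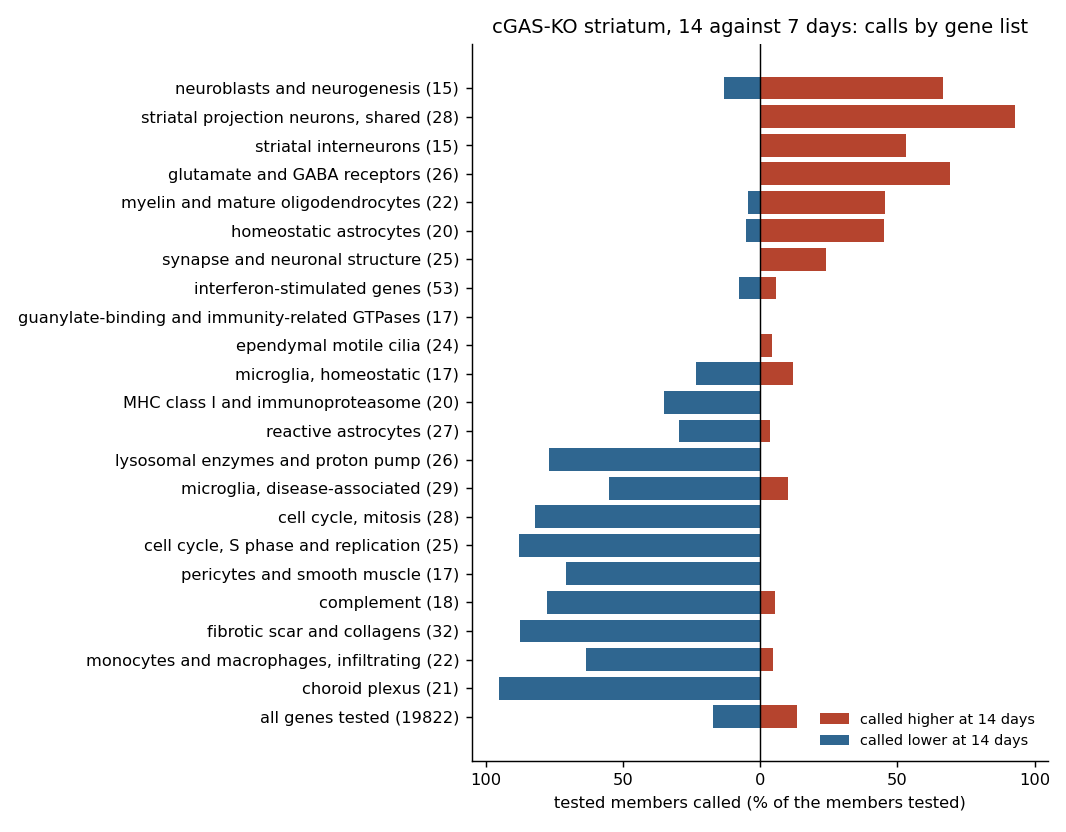
Share of the tested members of 22 gene lists (number of members in brackets) and of all genes that were called higher (red, to the right) or lower (blue, to the left) at 14 than at 7 days. Projection neuron and receptor genes lie to the right, interferon-stimulated genes and guanylate-binding GTPases near 0, and matrix and choroid plexus genes to the left, against 13.4% higher and 17.0% lower over all genes.

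Several abundant phagocyte transcripts fell. Spp1, the osteopontin of activated microglia and macrophages, had 3413 and 2812 CPM at 7 days and 92.4 and 97.0 CPM at 14 days (-5.04 ± 0.52, edgeR adjusted p = 9.8e-05). Gpnmb, a membrane glycoprotein of lipid-laden phagocytes, went from 2098 and 2464 CPM to 47.3 and 53.6 CPM (-5.50 ± 0.58, edgeR adjusted p = 0.000104). The galectin Lgals3 went from 345 and 396 CPM to 17.9 and 26.3 CPM. For these 3 genes the replicates of a time lay near each other and far from those of the other time. Of 29 genes of disease-associated microglia 16 fell and 3 rose (median -1.12; 13 to 15 falls with 1 library left out). Apoe, the lipid carrier of glia and the most abundant transcript of both 7-day libraries, fell from 17978 and 22311 CPM to 6366 and 7077 CPM (-1.58 ± 0.32, edgeR adjusted p = 0.00354). Among the 3 that rose was Fth1, the ferritin heavy chain, from 3105 and 2899 CPM to 5197 and 6857 CPM (1.01 ± 0.24, edgeR adjusted p = 0.00826, and 0.0664 without replicate 2 of day 14). Its light chain partner Ftl1 fell from 2113 and 2031 CPM to 491 and 413 CPM (-2.20 ± 0.33).

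Most genes of uptake, digestion and oxidant production fell as well. Of 21 genes of lipid uptake, droplets and efflux 15 fell and 2 rose. The scavenger receptor Msr1 went from 85.8 and 93.7 CPM to 3.87 and 4.45 CPM (-4.43 ± 0.24, edgeR adjusted p = 3.36e-06), and the lipid droplet coat gene Plin2 from 450 and 663 CPM to 40.7 and 37.5 CPM (-3.83 ± 0.28). Of 26 genes of lysosomal enzymes and the proton pump 20 fell and none rose (14 or 15 with 1 library left out), with the cathepsin Ctsb at 7220 and 7948 CPM and then at 2124 and 1874 CPM (-1.92 ± 0.24). All 7 genes of the phagocyte NADPH oxidase fell, but only 3 or 4 did with 1 library left out. Its membrane subunit Cybb went from 77.2 and 106 CPM to 11.9 and 16.7 CPM (-2.68 ± 0.45, edgeR adjusted p = 0.00138).

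Microglial identity genes went both ways. P2ry12, the purine receptor of resting microglia, had 75.2 and 78.7 CPM at 7 days and 134 and 113 CPM at 14 days (0.68 ± 0.16, edgeR adjusted p = 0.00937). Siglech, a sialic acid-binding lectin of microglia, rose from 27.2 and 22.7 CPM to 75.9 and 53.2 CPM (1.37 ± 0.23, edgeR adjusted p = 0.00133). Tmem119, a membrane protein of the same cells, fell from 150 and 122 CPM to 67.6 and 67.1 CPM (-1.01 ± 0.28, edgeR adjusted p = 0.019). The times did not overlap for any of these 3 genes. Of 17 genes of homeostatic microglia 2 rose (11.8%) and 4 fell (23.5%), where 13.4% and 17.0% of all genes did, with a median of -0.41. None fell without replicate 2 of day 14 or replicate 1 of day 7, 1 without replicate 1 of day 14 and 2 without replicate 2 of day 7, and 1 rose without replicate 1 of either time. P2ry12 was not called without replicate 1 of day 14 or of day 7 (adjusted p of up to 0.0989), nor Tmem119 without either 14-day library or replicate 1 of day 7 (up to 0.126).

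Several genes of infiltrating cells came near the floor at 14 days. F13a1, a coagulation factor subunit made by monocytes and macrophages, had 91.9 and 75.4 CPM at 7 days and 0.712 and 1.37 CPM at 14 days (-6.33 ± 0.35, edgeR adjusted p = 3.36e-06). Mmp8, the neutrophil collagenase, had 10.6 and 14.2 CPM at 7 days and 0 counts in both libraries of day 14, at least 89.9-fold lower against a floor of 3 counts per library. Mefv, the pyrin gene of myeloid cells, had 5.61 and 4.73 CPM and then 0 counts, at least 37.6-fold lower. Ccr2, the receptor that brings monocytes into tissue, went from 19.8 and 14.7 CPM to 1.07 and 2.22 CPM (-3.39 ± 0.45). Of 22 monocyte and macrophage genes 14 fell and 1 rose, with a median of -3.21 and 11 to 15 falls with 1 library left out. Of 8 neutrophil genes 4 fell and none rose (2 without replicate 1 of day 14). Their summed level did not separate the times, at 146 and 192 CPM and then 146 and 167 CPM.

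Some lymphocyte genes were called, in both directions. Ighm, the immunoglobulin mu chain, went from 21.3 and 22.5 CPM to 60.9 and 82.4 CPM (1.71 ± 0.31, edgeR adjusted p = 0.00215). Cd4, a receptor of helper T cells that some myeloid cells also carry, went from 5.61 and 5.97 CPM to 13.3 and 28.4 CPM (1.84 ± 0.37, edgeR adjusted p = 0.00339). In both genes replicate 2 of day 14 was the highest library. Cd3e and Cd8a, T cell genes among the first 3 of the list below, were not called (edgeR adjusted p = 0.125 and 0.0527), while the other rose. Cd4 averaged 34.8 CPM in 14-day STING-KO, where Cd3e averaged 0.293 CPM, and 9.58 CPM in 14-day WT, where Cd3e averaged 2.17 CPM. Which cells carry Cd4 here was not tested. Gzma, a granule protease of natural killer and T cells, had 2.29 and 1.39 CPM at 7 days and 0 counts at 14 days, at least 13.4-fold lower. Of 23 genes of T, natural killer, B and dendritic cells 5 rose (21.7%) and 2 fell (8.7%), where 13.4% and 17.0% of all genes did. With so few genes, these shares do not set the list apart. Its median change was 0.62, and between -0.03 and 1.07 with 1 library left out.

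**Figure D3:**
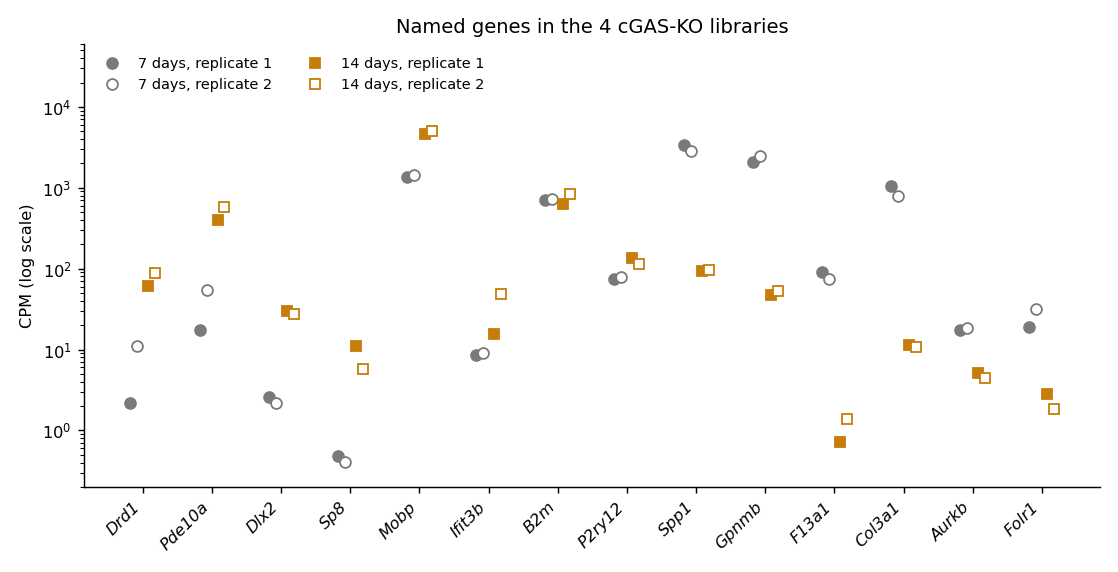
CPM on a log scale (y axis) of 14 named genes (x axis) in the 7-day (grey circles) and 14-day (orange squares) cGAS-KO libraries, with replicate 1 filled and replicate 2 open. Spp1, Gpnmb, F13a1 and Col3a1 drop by more than 1 step of 10, Drd1, Pde10a, Dlx2 and Sp8 rise, and for Ifit3b replicate 2 of day 14 stands well above replicate 1.

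Of 18 complement genes tested, 14 fell, 1 rose and 3 were not called, with a median of -1.52, and 7 to 12 fell with 1 library left out, 7 without replicate 1 of day 14 and 8 without replicate 2 of day 14 or replicate 1 of day 7. C1qa, a chain of the recognition molecule C1q that microglia make, went from 1494 and 1670 CPM to 296 and 504 CPM (-1.98 ± 0.44, edgeR adjusted p = 0.00634, and 0.0676 without replicate 1 of day 14). C4b, whose product is cleaved downstream of C1q, had 487 and 384 CPM at 7 days and 1026 and 1184 CPM at 14 days. It rose by 1.34 ± 0.39 (edgeR adjusted p = 0.0239), a call that was lost without any 1 of the 4 libraries (adjusted p of up to 0.124).

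Few interferon-stimulated genes were called, and the 2 libraries of day 14 lay on either side of those of day 7. Their summed level was 1721 and 1765 CPM at 7 days and 1358 and 2313 CPM at 14 days. Of 53 tested, 3 rose (Ifit3b, Cmpk2 and Herc6) and 4 fell (Ifitm2, Bst2, Trim25 and Irf1), with a median of 0.33. Bst2, Trim25 and Irf1 are named here to complete the count and were chosen after their values were seen. All 3 lost their calls without replicate 1 of day 14 or of day 7 (adjusted p of up to 0.22, 0.151 and 0.266), and Bst2 and Trim25 also without replicate 2 of day 7. None of 17 guanylate-binding and immunity-related GTPases and none of 12 Ifi200 DNA sensors was called by edgeR (medians 0.49 and 0.27). With replicate 1 of day 14 left out, 1 GTPase and 4 Ifi200 genes were called higher (medians 0.64 and 0.72), and with replicate 2 left out 1 and 2 were called lower (medians -0.45 and -0.96). At an unadjusted p below 0.05, 11 interferon-stimulated genes were higher and 6 lower, none of the GTPases was higher and 1 lower, and 2 Ifi200 genes were higher and 1 lower. DESeq2's Wald test called 7 interferon-stimulated genes higher and 4 lower, and called no GTPase and no Ifi200 gene.

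The 2 libraries of day 14 differed over these genes. All 53 interferon-stimulated genes, all 17 GTPases and all 12 Ifi200 genes were higher in replicate 2 than in replicate 1, with a median log2 gap of 0.91 in the first list, while 10056 of all 19822 genes were higher in replicate 2 and the median gap was 0.01. Replicate 2 lay above both 7-day libraries for 43 of the 53 genes, and replicate 1 for 12. Replicate 1 lay below both for 30. Between the 7-day replicates the median gap of the list was 0.06. Without replicate 1 of day 14, 15 of the 53 genes rose and 1 fell, with a median of 0.62. Without replicate 2, none rose and 8 fell, with a median of -0.38, so the direction of the list depended on which 14-day library was used. What sets these 2 libraries apart was not tested.

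**Figure D4:**
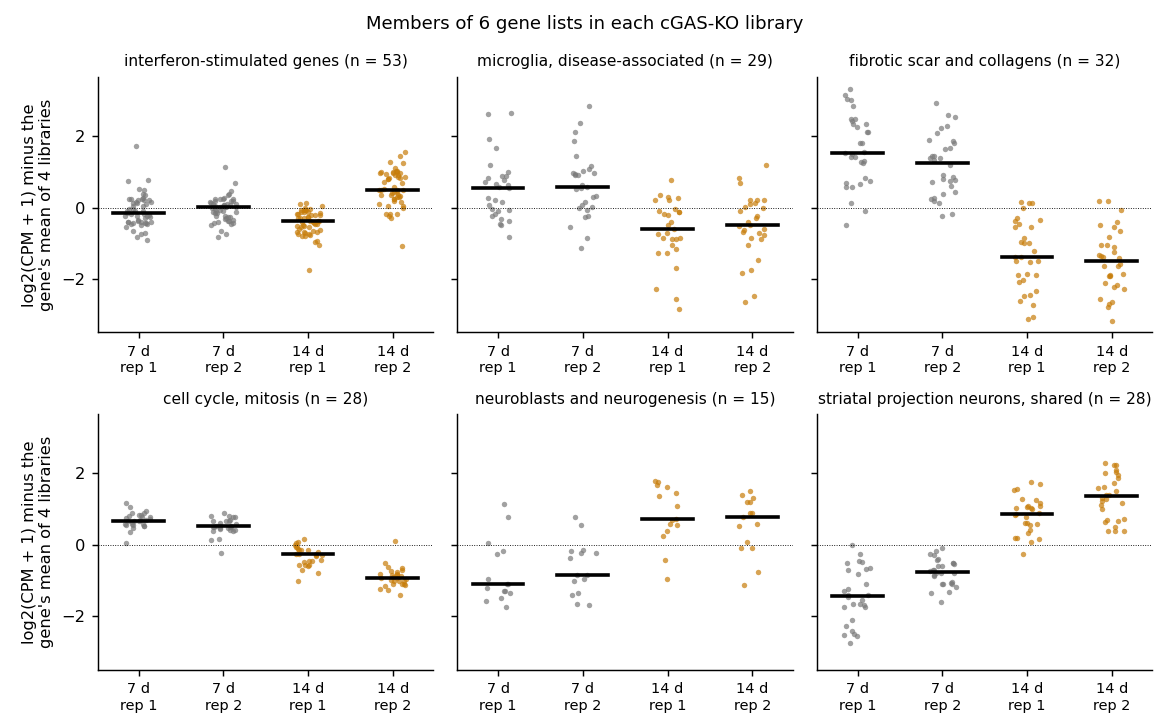
Each point is 1 gene's log2(CPM + 1) in a library minus its mean over the 4 cGAS-KO libraries (y axis), for 6 gene lists, and black bars are the medians. The 14-day pair lies on 1 side of the 7-day pair for matrix, neuroblast and projection neuron genes, while for the 53 interferon-stimulated genes replicate 1 of day 14 lies below the 7-day libraries and replicate 2 above them.

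The single genes given here were all higher in replicate 2 than in replicate 1 of day 14. Only Isg15 had its 14-day libraries on either side of both 7-day libraries. Ifit3b, which encodes a protein that binds foreign RNA, had 8.51 and 8.95 CPM at 7 days and 15.7 and 48.2 CPM at 14 days (1.87 ± 0.51, edgeR adjusted p = 0.0185). Ifit1, a related RNA-binding gene, had 17.6 and 10.6 CPM and then 15.8 and 48.0 CPM (1.18 ± 0.47, edgeR adjusted p = 0.0804). Isg15, a ubiquitin-like modifier, had 13.2 CPM in both 7-day libraries and 5.25 and 15.9 CPM at 14 days (-0.32 ± 0.40, edgeR adjusted p = 0.579). In all 3 genes replicate 2 of day 14 was about 3 times as high as replicate 1. Cxcl10, an interferon-induced chemokine for T cells, went from 7.30 and 2.52 CPM to 13.7 and 23 CPM (1.93 ± 0.54, edgeR adjusted p = 0.0197). It is counted with the chemokines and not among the 53 genes. Ifitm2, a membrane protein that blocks viral entry, fell from 55.6 and 36.4 CPM to 4.09 and 7.10 CPM (-3.04 ± 0.28, edgeR adjusted p = 3.91e-05). Without replicate 2 of day 14, Ifit3b, Cmpk2, Herc6 and Cxcl10 all lost their calls (adjusted p of 0.202, 0.0767, 0.107 and 0.119). The first 3 also lost them without replicate 1 of day 7, and Ifit3b and Cxcl10 without replicate 2 of day 7.

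The interferon-stimulated response element (ISRE), which the factor ISGF3 binds, was searched on both strands as TTTC, any 2 bases and TTTC again in the 250 bases before each gene's start. RefSeq windows (GRCm38.p6) matched 13431 of the 19822 tested genes (67.8%). The motif was in 15 of 40 interferon-stimulated gene windows (37.5%) and in 9 of 10 GTPase windows, against 3.28% of all windows, 2.81% of those of rising genes and 3.63% of those of falling genes. Windows of 5 genes that rose, fell or were not called are shown so that the motif can be set beside the values above. Of these, Cxcl10 is counted with the chemokines and the others with the interferon-stimulated genes. The motif is in capitals, beginning with TTTC or, for a match on the other strand, with GAAA. The windows run 5′ to 3′ on the gene's strand and end at the base before its start. Ifit3b, which rose, lies on the plus strand (chr19:34607757-34607956), Cxcl10, which rose, on the minus strand (chr5:92348890-92349109), and Ifitm2, which fell, on the minus strand (chr7:140955962-140956041). Ifit1 (plus strand, chr19:34640769-34640888) and Isg15 (minus strand, chr4:156200819-156200918) were not called.
Ifit3b: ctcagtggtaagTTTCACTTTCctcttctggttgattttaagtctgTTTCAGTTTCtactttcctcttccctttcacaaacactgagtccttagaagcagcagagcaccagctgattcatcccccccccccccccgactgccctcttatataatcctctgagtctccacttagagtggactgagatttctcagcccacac
Cxcl10: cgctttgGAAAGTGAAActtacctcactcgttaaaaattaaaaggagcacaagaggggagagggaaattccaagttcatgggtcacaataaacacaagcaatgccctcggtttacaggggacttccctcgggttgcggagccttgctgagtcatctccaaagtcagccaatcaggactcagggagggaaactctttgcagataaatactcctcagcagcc
Ifitm2: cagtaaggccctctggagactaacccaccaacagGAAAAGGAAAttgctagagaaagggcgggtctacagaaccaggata
Ifit1: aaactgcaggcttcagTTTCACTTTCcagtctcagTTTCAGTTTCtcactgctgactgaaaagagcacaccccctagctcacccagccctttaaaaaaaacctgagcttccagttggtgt
Isg15: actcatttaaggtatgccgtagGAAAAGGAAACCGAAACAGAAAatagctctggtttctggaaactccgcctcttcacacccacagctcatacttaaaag
These 5 windows were picked from genes that hold the motif, so they do not show how often it occurs. Over all windows it was in 53 of 1888 rising, 90 of 2476 falling and 297 of 9067 uncalled genes. Ifit3b and Ifit1 hold 2 copies each, and in Isg15 several overlap. A match is a description of the letters only.

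Upstream and alongside the interferon response, the genes called mostly fell. Of 18 genes of the cGAS-STING pathway 9 fell and none rose (median -0.49; 6 or 7 with 1 library left out). Enpp1, which degrades cGAMP outside cells, went from 97.2 and 91.8 CPM to 16.6 and 14.9 CPM (-2.59 ± 0.25, edgeR adjusted p = 5.17e-05). The lysosomal nuclease Dnase2a went from 95.2 and 93.8 CPM to 24.5 CPM in both 14-day libraries (-1.95 ± 0.16, edgeR adjusted p = 2.04e-05). The receptor chain Ifnar2 went from 70.0 and 68.7 CPM to 29.4 and 31.0 CPM (edgeR adjusted p = 0.000179). Of 20 genes of MHC class I and the immunoproteasome 7 fell and none rose (3 without replicate 1 of either time, 4 and 5 without replicates 2 of days 7 and 14), and 19 of the 20 were higher in replicate 2 than in replicate 1 of day 14. Over all genes 50.7% were higher in replicate 2 of day 14. B2m, the light chain of MHC class I, stood at 703 and 732 CPM and at 637 and 831 CPM.

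Of 13 MHC class II genes 7 fell and 1 rose (2 without replicate 1 of day 7, 4 without replicate 1 of day 14). Toll-like receptors and adaptors fell in 10 of 21 genes and rose in 1, the falls numbering 3 without replicate 2 of day 7 and 5 without replicate 2 of day 14. Cytokines and their receptors fell in 12 of 24 genes and rose in 2, with 5 falls without replicate 1 of day 14, 7 without replicate 2 of day 14 or replicate 1 of day 7, and 1 rise without any 1 library. Tnf, a cytokine of activated myeloid cells, went from 5.19 and 3.09 CPM to 0.133 and 0.899 CPM (-3.00 ± 0.56, edgeR adjusted p = 0.00254). Of 24 chemokines 3 rose and 6 fell (1 rose without replicate 2 of day 14 or either 7-day library), with Ccl2, the ligand of Ccr2, going from 7.84 and 6.64 CPM to 0.979 and 1.37 CPM (-2.62 ± 0.43) where Cxcl10 rose. Of 16 genes of necroptosis and extrinsic cell death 13 fell and none rose, 9 of them without replicate 1 of day 14. Casp8, a caspase of that pathway, went from 50.9 and 45.1 CPM to 17.9 and 16.5 CPM (-1.48 ± 0.16, edgeR adjusted p = 0.000102).

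Most matrix and scar genes fell. Of 32 collagens and scar genes 28 fell and none rose, with a median of -2.90 and 25 to 28 falls with 1 library left out. Col3a1, a fibrillar collagen, had 1037 and 780 CPM at 7 days and 11.4 and 10.6 CPM at 14 days (-6.37 ± 0.83, edgeR adjusted p = 0.000314). Col1a1, its partner in scar fibrils, went from 1566 and 1032 CPM to 19.4 and 29.3 CPM (-5.74 ± 0.74, edgeR adjusted p = 0.000305). Both genes were highest in replicate 1 of day 7, and the 14-day values did not come near those of day 7. The collagen crosslinking enzyme Loxl2 fell by 4.73 on the log2 scale (-4.73 ± 0.41), and the protease Adamts12, which had 49.8 and 42.7 CPM at 7 days, had 0.400 and 0.284 CPM at 14 days. Of 21 matrix metalloproteinases and inhibitors 15 fell and 1 rose (median -1.94).

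Vessel wall genes were called lower more often than higher. Of 17 pericyte and smooth muscle genes 12 fell and none rose (6 without replicate 1 of day 7, 7 without replicate 1 of day 14). Pdgfrb, the growth factor receptor of pericytes, went from 235 and 140 CPM to 30.3 and 46.2 CPM (-2.29 ± 0.28, edgeR adjusted p = 0.000197). Of 30 endothelial genes 11 fell and 3 rose (4 falls without replicate 1 of day 7, 5 and 6 without replicates 1 and 2 of day 14). Cdh5, the cadherin of endothelial junctions, fell from 182 and 80 CPM to 24.7 and 33.1 CPM (-2.18 ± 0.36), whereas Slco1a4, an organic anion transporter of the blood-brain barrier, rose from 67.8 and 60.4 CPM to 133 and 136 CPM (1.07 ± 0.18, edgeR adjusted p = 0.00115). At 7 days replicate 1 was the higher one for 16 of the 17 pericyte genes, 27 of the 30 endothelial genes and 30 of the 32 matrix genes. Over all genes 48.8% were higher in replicate 2 of day 7.

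Choroid plexus genes were high at 7 days. Of 21 tested, 20 fell and none rose, with a median of -3.42 and 18 to 20 falls with 1 library left out. Ttr, the thyroxine carrier of choroid plexus epithelium, had 2376 and 4205 CPM at 7 days and 259 and 71.0 CPM at 14 days (-4.32 ± 0.98, edgeR adjusted p = 0.00755, and 0.0557 without replicate 2 of day 14). Folr1, a folate receptor of the same epithelium, went from 18.9 and 31.8 CPM to 2.85 and 1.85 CPM (-3.43 ± 0.39, edgeR adjusted p = 0.000128). The summed level of the list was 2881 and 4993 CPM at 7 days and 362 and 151 CPM at 14 days, and Ttr, Folr1 and Kcnj13 were above 0 in all 4 libraries. Slc22a6, an organic anion transporter found in meninges and choroid plexus, also fell, from 53.4 and 12.8 CPM to 0.311 and 0.568 CPM. The part of choroid plexus in the falls of other genes was not tested. Ependymal genes, which come from the neighbouring ventricle lining, rose in 1 of 24 and fell in none (0 to 2 rose with 1 library left out), with summed levels of 408 and 394 CPM and then 473 and 452 CPM.

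Erythrocyte genes summed to 867 and 708 CPM at 7 days and to 143 and 256 CPM at 14 days, with 3 of 5 called lower (1 without replicate 1 of either time). The haem-degrading enzyme Hmox1 fell from 135 and 124 CPM to 17.8 and 23.9 CPM (-2.63 ± 0.24, edgeR adjusted p = 3.75e-05). Of 14 genes of iron and haem handling 8 fell and 1 rose.

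Some genes of mature oligodendrocytes and astrocytes rose. Mbp, the myelin basic protein, had 5486 and 6444 CPM at 7 days and 12630 and 16812 CPM at 14 days (1.30 ± 0.28, edgeR adjusted p = 0.00498, and 0.0522 without replicate 1 of day 7). Mobp, another protein of the myelin sheath, went from 1360 and 1455 CPM to 4606 and 5107 CPM (1.79 ± 0.29, edgeR adjusted p = 0.00107), and the acetylaspartate-cleaving enzyme Aspa from 26.5 and 25.5 CPM to 68.5 and 63.1 CPM. Of 22 myelin and mature oligodendrocyte genes 10 rose and 1 fell, with a median of 0.70 (3 without replicate 1 of day 7, 5 without replicate 1 of day 14). Pdgfra, the growth factor receptor of oligodendrocyte precursors and of some fibroblasts, fell from 143 and 128 CPM to 73.6 and 60.2 CPM (-1.02 ± 0.19, edgeR adjusted p = 0.00259). Of 15 genes of precursors and early differentiation 4 rose and 1 fell (1 rose without replicate 1 of day 14, 2 without replicate 2 of day 14 or replicate 1 of day 7, and 2 fell without replicate 2 of day 7).

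Ntsr2, a neurotensin receptor of astrocytes, went from 79.9 and 88.8 CPM to 277 and 274 CPM (1.71 ± 0.17, edgeR adjusted p = 5.92e-05). Of 20 genes of homeostatic astrocytes 9 rose and 1 fell (3 without replicate 1 of day 14, 5 without replicate 1 of day 7). Of 27 reactive astrocyte genes 1 rose and 8 fell (5 fell without replicate 1 of either time). Gfap, the intermediate filament that defines reactive astrocytes, stood at 3132 and 2533 CPM and then at 3652 and 3233 CPM (0.28 ± 0.48, edgeR adjusted p = 0.697).

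Transcripts of the mitochondrial genome rose in 8 of 13 genes, with none falling and a median of 1.24. With 1 library left out the median was between 1.14 and 1.45. Fewer of the genes were called in each of those fits, which leave 1 library at 1 of the times. Without a filter on low counts 1 of the 13 genes rose. mt-Co1, a subunit of cytochrome oxidase, went from 12241 and 11988 CPM to 27262 and 27381 CPM (1.17 ± 0.26, edgeR adjusted p = 0.00544). Of 26 nuclear-encoded respiratory chain genes none rose and 6 fell (1 and 2 without replicates 1 of days 14 and 7). Of 42 cytosolic ribosomal protein genes 19 fell and none rose, with a median of -0.56 (4 without replicate 1 of day 7, 7 without replicate 1 of day 14, 11 without replicate 2 of day 7). The part of RNA quality in these values was not tested.

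Imprinted genes, many of which act in growth, were called in both directions, 5 of 15 rising and 4 falling with a median of 0.08 (1 rose without replicate 1 of either time, 3 without replicate 2 of day 7). H19, an imprinted noncoding RNA, had 131 and 111 CPM at 7 days and 1.42 and 2.13 CPM at 14 days (-6.09 ± 0.61, edgeR adjusted p = 6.59e-05). Igf2, the growth factor encoded beside it, went from 21.4 and 21.1 CPM to 0.578 and 1.23 CPM (-4.55 ± 0.58, edgeR adjusted p = 0.000257), and Igf1, which microglia and macrophages make, from 182 and 219 CPM to 35.0 and 28.1 CPM (-2.67 ± 0.41). Among 916 long intergenic noncoding RNAs 96 rose (10.5%) and 68 fell (7.42%). Both shares were below those among 15699 protein-coding genes, of which 2271 rose (14.5%) and 3025 fell (19.3%).

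The change over time was set beside that in the other labelled genotypes, which share no library with it. In STING-KO 11274 genes were called between the times (56.9%; 27.4% higher and 29.5% lower at 14 days) and in WT 8693 (43.9%; 24.1% higher and 19.7% lower). Of the 2654 genes that rose in cGAS-KO, 2021 were also among the 5426 that rose in STING-KO and 765 among the 4780 that rose in WT, while 582 were called lower in WT and 84 in STING-KO. Of the 3368 that fell, 2831 were among the 5848 that fell in STING-KO and 552 among the 3913 that fell in WT, while 1359 were called higher in WT and 22 in STING-KO. A test of the difference itself called 3830 genes between cGAS-KO and STING-KO (19.3%) and 7271 between cGAS-KO and WT (36.7%). The first count was 1889 without replicate 2 of 7-day STING-KO, 2147 without replicate 2 of 14-day cGAS-KO and 2288 without replicate 2 of 7-day cGAS-KO. The WT comparison includes the 7-day WT libraries that stood apart, so that how much of the difference comes from them cannot be told apart from genotype.

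Against STING-KO, the fall of disease-associated microglia genes was smaller in cGAS-KO. This comparison includes the 14-day STING-KO libraries that stood apart on the first component, and their part cannot be told apart from genotype. The difference of the changes (cGAS-KO minus STING-KO) was positive and called for 27 of 29 disease-associated microglia genes and 15 of 17 homeostatic ones, where 10.7% of all genes were positive. It was positive for only 4 of 22 monocyte and macrophage genes and 1 of 8 neutrophil genes, and negative for none of them. The monocyte and macrophage list had a median change of -3.21 in cGAS-KO and -2.91 in STING-KO. Spp1 differed by 4.72 (edgeR adjusted p = 0.00197) and Gpnmb by 3.84 (edgeR adjusted p = 0.00605). The rise of projection neuron genes was also smaller, with a negative difference called for 15 of 28 shared genes against 8.59% of all genes. Of the interferon-stimulated genes, 25 of 53 had a positive difference and none a negative one, and this list had a median change of -1.39 in STING-KO. For Mbp the difference was 3.06 (edgeR adjusted p = 0.00136).

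Against WT, most genes of several immune lists had a negative difference. Interferon-stimulated genes had a median change of 4.0 in WT, and the difference (cGAS-KO minus WT) was negative and called for 51 of 53 genes and positive for 1, where 21.0% of all genes were negative. It was negative for 27 of 29 disease-associated microglia genes, 28 of 28 mitosis genes and 31 of 32 collagens and scar genes. Spp1 differed by -11.55 (edgeR adjusted p = 2.5e-06). Glutamate and GABA receptor genes had a positive difference in 25 of 26 cases, where 15.7% of all genes were positive. Of 15 neuroblast genes 12 rose in WT, 8 in STING-KO and 10 in cGAS-KO, with a difference from WT called for 7 and from STING-KO for 4. For Cgas itself the change in cGAS-KO differed from that in STING-KO by 1.42 (edgeR adjusted p = 0.0364) and from that in WT by -1.83 (edgeR adjusted p = 0.00557).

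**Figure D5:**
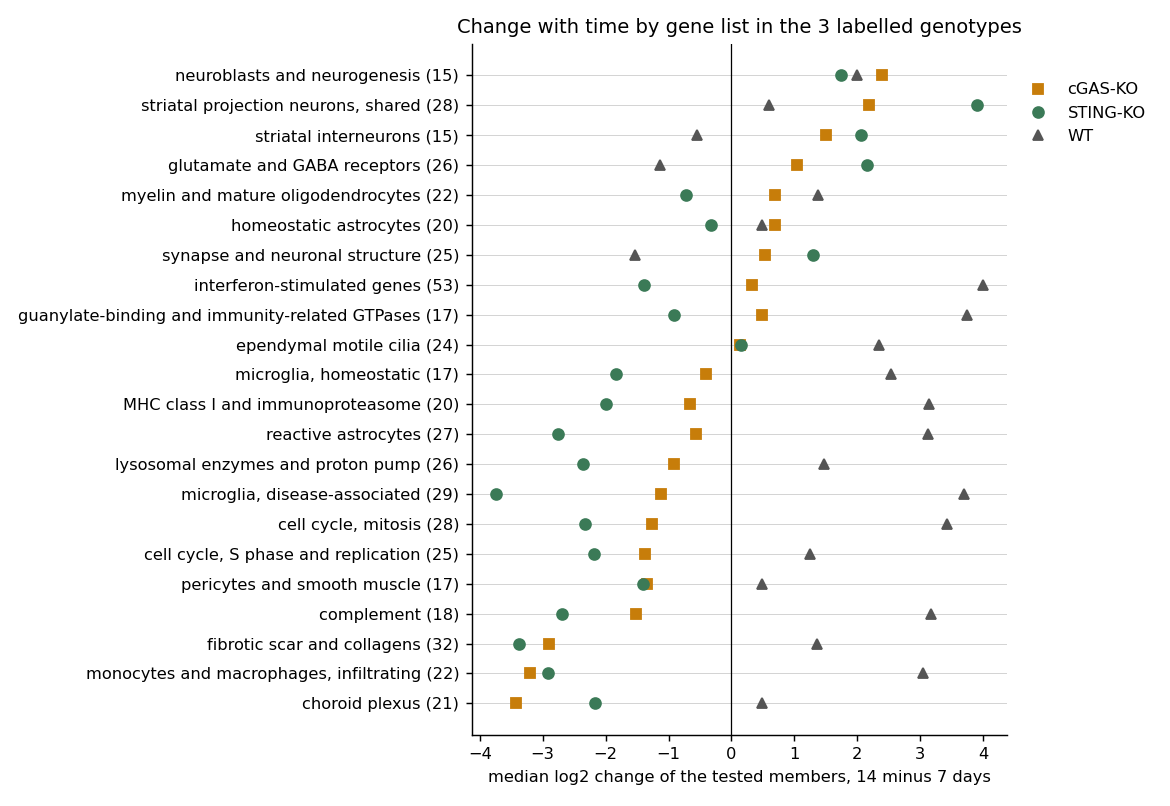
Median log2 change between 14 and 7 days (x axis) of the tested members of 22 gene lists (number in brackets) in cGAS-KO (orange squares), STING-KO (green circles) and WT (grey triangles). The cGAS-KO and STING-KO medians lie on the same side of 0 for most lists, whereas the WT medians of lists such as disease-associated microglia, complement and mitosis lie above 0 and those of the other genotypes below it. For interferon-stimulated genes the median is 4.0 in WT, 0.33 in cGAS-KO and -1.39 in STING-KO.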

How the data were processed

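RNA of striatum was sequenced as poly(A)-selected, paired-end libraries, per the labels' protocols. The deposited files hold raw counts per Ensembl gene, made by the authors with HISAT2, featureCounts and the mm10 genome, per the submitters' processing notes. Versions of these tools, the gene models and whether strand was used are not given in the sources used here, so reads of overlapping and antisense genes cannot be told apart. Symbols came from GENCODE M21 (54495 of 54532 IDs).

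All 12 libraries entered 1 edgeR model (edgeR 4.0.16, R 4.3.3) with a mean per group (6 groups, 6 residual degrees of freedom). Genes passed filterByExpr with a minimum count of 10 and a total of 15, libraries were scaled by TMM, and robust quasi-likelihood tests were adjusted over the 19822 genes tested. The test was also run on simulated data, where the share of false calls was above the nominal one and most 2-fold changes were missed, so calls near the threshold are uncertain and a gene not called may have changed. Replicates differed by more than sampling noise (chi-square per degree of freedom of 23.3 at 14 days and 26.1 at 7 days), so no pair was taken for 1 library deposited again, which does not show that they come from separate mice.

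The 57 gene lists, like the comparison itself, were chosen with earlier results of these data known, so that their counts are descriptions. The text names Cgas and Tmem173, the 15 largest called rises and falls among protein-coding genes with a log2 CPM of at least 1 and no overlap, the first 3 genes of each list and the 4 with its smallest adjusted p, the 8 largest differences between genotypes in each direction, and the 10 highest called genes in each direction. Alternatives were DESeq2 1.42.0, its size factors, other filters, a fit without robust estimation, a replicate block, other sets of libraries and leaving out each library.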

Additional observations from a re-analysis of the deposited data

Results flagged for a closer look

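A test of the difference between genotypes set these results apart from the change over time alone. The change between 7 and 14 days differed between cGAS-KO and STING-KO for 3830 genes and between cGAS-KO and WT for 7271 genes, both by edgeR. For Cgas the change in cGAS-KO was 1.42 above that in STING-KO and differed from that in WT by -1.83 on the log2 scale. For Spp1 it was 4.72 above that in STING-KO and differed from that in WT by -11.55. For Mbp it was 3.06 above that in STING-KO. Values that compare with WT include the 7-day WT libraries, and those that compare with STING-KO the 14-day STING-KO libraries, both of which stood apart.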

How the results depend on the processing

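The count of genes called between 14 and 7 days in cGAS-KO ranged from 2968 to 4735 when 1 of its 4 libraries was left out, and from 5261 to 6144 under the other alternatives. The difference from STING-KO gave 1889 to 5007 genes and that from WT 5292 to 6844 with 1 library left out. Of 57 lists, 29 had 50% or more of their members called in 1 direction, 19 without a filter on low counts and 15 to 22 with 1 library left out. Leaving out 1 library at a time gave changes of -0.47 to 0.11 for Cgas, -1.34 to 0.25 for Isg15 and -0.18 to 0.19 for B2m, with the 2 ends of each range from the 2 libraries of day 14. The first 2 ranges crossed 0 without replicate 1 of day 14 and the third without replicate 2, none of them called there, while Isg15 was called lower without replicate 2 (adjusted p = 0.0162). Of the 80 genes named and called, 65 were called under every alternative run. With the replicate number as a block, 6084 genes were called between the times, 3920 in the difference from STING-KO and 7332 in that from WT. Of 86 named genes checked none changed its call, while 2 Ifi200 genes were called higher and 1 lower. The numbers do not pair the samples: the deviations of same-numbered cGAS-KO libraries of the 2 times correlated at -0.045. DESeq2 gave 6144, 4622 and 7632 genes. With 2 libraries a group and 16115387 to 22126213 counts each, levels below 0.133 to 0.181 CPM rest on fewer than 3 counts.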

Other observations

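Among noncoding genes, 2 were chosen after their values were seen. Dlx6os1, which overlaps Dlx6, had 2.05 and 2.78 CPM at 7 days and 35.1 and 22.7 CPM at 14 days (3.57 ± 0.37, edgeR adjusted p = 8.67e-05). Dnm3os, which overlaps Dnm3 and holds microRNA precursors, had 17.0 and 6.33 CPM at 7 days and 0.400 and 0.0946 CPM at 14 days, the last from fewer than 3 counts. Both are annotated as antisense to another gene, and without a stated strand setting their reads cannot be told apart from those of that gene. Among 720 processed pseudogenes 27 rose (3.75%) and 111 fell (15.4%), where 13.4% and 17.0% of all genes did.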
